A study of Mus musculus with 11 samples.

Results

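The microRNA miR-126 is made from a hairpin inside Egfl7, a gene for a secreted endothelial protein, and the hairpin yields a mature strand from each arm, miR-126-3p and miR-126-5p. The members were the 2 assays of these strands, mmu-miR-126-3p and mmu-miR-126-5p, taken by name out of 517 miR assays measured by PCR in whole aorta. All 11 mice were female apoE-/- animals, which lack apolipoprotein E and are prone to atherosclerosis, labelled with an age of 6 to 8 weeks. A high fat diet (crude fat 21%, casein 19.5%, cholesterol 0.15%) had been fed for 10 months to 3 of them and for 3 months to 4, and these aortas are described as atherosclerotic. The other 4, the controls, ate a normal diet and are described as free of it. Treatment labels give 3 months for the longer-fed mice as well, so their titles and the design text were followed. Time on the diet and age cannot be told apart. The labels do not say when the controls were collected, and the longer-fed mice would also be older if feeding began at a similar age. For mice fed for 3 or 10 months, the labelled age of 6 to 8 weeks cannot be that at collection.

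MicroRNAs guide silencing complexes to messenger RNAs through the seed, bases 2 to 8 of the strand. miR-126 is among the microRNAs most characteristic of endothelium, and is also carried by platelets and blood progenitors. The 3p strand is known to repress Spred1 and Pik3r2, which dampen vascular endothelial growth factor signalling, and Vcam1, a leukocyte adhesion molecule. The 5p strand, formerly miR-126*, is known from mouse work to repress Dlk1 and to favour endothelial proliferation. None of these messenger RNAs was measured here. In whole aorta, fewer cells of a type and less RNA per cell cannot be told apart.

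The 3p strand and its hairpin are shown because both assays read strands cut from this one precursor. The sequences are from RefSeq, and capitals mark the seed in the first and miR-126-3p in the second.
miR-126-3p: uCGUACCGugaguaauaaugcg
Mir126a hairpin: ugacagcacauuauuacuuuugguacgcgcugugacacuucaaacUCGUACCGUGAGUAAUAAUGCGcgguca
The hairpin gene, Mir126a, lies at chr2:26591357-26591429 on the plus strand of GRCm38.p6, within the span of Egfl7. The mature 3p strand, at chr2:26591402-26591423, has 22 bases and takes up positions 46 to 67 of the 73-base hairpin. Its seed was held by 1 of the 1679 mature mouse sequences in the RefSeq table, miR-126-3p itself. In the lowest-energy fold of the hairpin (-31.2 kcal/mol), 19 of the 22 bases were paired, with partners between positions 7 and 27, on the side from which the 5p strand is cut. The miR-126-5p strand was matched to no mature entry and is only named. An antisense hairpin, Mir126b, covers positions 7 to 64 on the other strand and was not analysed here.

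Both strands were detected in all 11 mice, at an early threshold cycle. The threshold cycle runs against the amount, so that 1 cycle less stands for about 2 times more template, and wells at 35 cycles or later counted as not detected. miR-126-3p crossed the threshold at cycle 13.95, 16.95 and 14.41 after 10 months, at 14.87, 14.78, 16.51 and 14.97 after 3 months, and at 15.72, 16.60, 14.87 and 15.92 in controls. It held rank 3 to 6 of the 517 assays in every mouse, counted from the earliest cycle. miR-126-5p came at 18.1, 21.5 and 17.7 after 10 months, at 18.4, 19.0, 20.2 and 19.5 after 3 months, and at 18.9, 19.8, 18.1 and 18.9 in controls, with rank 24 to 41. These ranks are of cycles, and amplification efficiencies of the assays are not known here, so they do not compare amounts of RNA. Each miR was read once per mouse, and the number of mice limits the precision.

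One mouse stood apart before any comparison. In replicate 2 of the 10-month group the mean cycle of the 285 miRs detected in every mouse was 26.9, against 23.2 to 25.3 in the other 10 mice. The 4 control assays for other small RNAs (U6 and the nucleolar RNAs snoRNA429, snoRNA202 and snoRNA135) had a mean cycle of 20.9 there, against 15.6 to 18.1. Between 322 and 380 miRs were detected per mouse. A level is given here as a log2 difference from the mean of these 285 miRs within the mouse, and the main values that this mouse moves by over 1.5 times are also given without it.

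After 10 months of high fat diet, miR-126-3p was at 9.54, 9.98 and 8.76, against 8.29, 8.69, 8.40 and 8.21 in control aortas. All 3 diet mice lay above all 4 controls, with replicate 3 just above the highest control. The mean was 9.43 ± 0.62 (SD, n = 3) after 10 months and 8.39 ± 0.21 (SD, n = 4) in controls, a 2.04-fold difference (log2 fold 1.03, SE 0.36, 95% interval 0.24 to 1.82). In the fit over all 353 tested miRs this missed the threshold of 0.05 (limma adjusted p = 0.139). That fit called 16 miRs (4.53%) in this comparison, with 60 (17%) at an unadjusted p under 0.05 and miR-126-3p ranking 39th by p. In an exact two-sided permutation test of this single value p was 0.0286, the smallest that 3 against 4 mice can give. Groups without overlap occurred in 15.9% of tested miRs, and in 6.52% with the diet group higher. Without replicate 2 of the 10-month group limma called 10 miRs, and the log2 fold of miR-126-3p was 0.76 (adjusted p = 0.441).

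miR-126-5p did not pass in the same mice. It was at 5.44, 5.45 and 5.43 after 10 months, against 5.11, 5.51, 5.14 and 5.18 in controls. The 3 diet mice lay within 0.02 of each other and below the highest control. The means were 5.44 ± 0.01 (SD, n = 3) after 10 months and 5.23 ± 0.18 (SD, n = 4) in controls. The log2 fold was 0.20 (SE 0.25, 95% interval -0.36 to 0.77, limma adjusted p = 0.800, exact two-sided permutation p = 0.143). A fold of up to 0.77 on the log2 scale thus remains within the interval.

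After 3 months of high fat diet, the strands had folds of opposite sign and neither passed. miR-126-3p was at 8.89, 9.02, 8.43 and 9.45 after 3 months, against 8.29, 8.69, 8.40 and 8.21 in controls. Of the diet mice, 3 of 4 lay above every control and replicate 3 lay among them. The mean was 8.94 ± 0.42 (SD, n = 4) after 3 months and 8.39 ± 0.21 (SD, n = 4) in controls (log2 fold 0.55, SE 0.33, 95% interval -0.18 to 1.28). The limma adjusted p was 0.685 and the exact two-sided permutation p was 0.0571. miR-126-5p was at 5.37, 4.77, 4.76 and 4.95 after 3 months, against 5.11, 5.51, 5.14 and 5.18 in controls. Here 3 of 4 diet mice lay below every control and replicate 1 lay among them. The mean was 4.96 ± 0.28 (SD, n = 4) after 3 months and 5.23 ± 0.18 (SD, n = 4) in controls (log2 fold -0.27, SE 0.24, 95% interval -0.79 to 0.25). The limma adjusted p was 0.787 and the exact two-sided permutation p was 0.2. limma called 0 of 353 miRs (0%) in this comparison, with 30 (8.5%) at an unadjusted p under 0.05. Groups without overlap occurred in 5.38% of tested miRs, and in 2.83% with the diet group higher.

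Between 10 and 3 months on the diet, the 2 strands had nearly the same fold. The log2 fold was 0.48 (SE 0.36, 95% interval -0.31 to 1.27, limma adjusted p = 0.623) for miR-126-3p. It was 0.47 (SE 0.25, 95% interval -0.09 to 1.04, limma adjusted p = 0.475) for miR-126-5p. The 5p values did not overlap, at 5.43 to 5.45 after 10 months and 4.76 to 5.37 after 3 months, whereas the 3p values did. In exact two-sided permutation tests 5p had p = 0.0571 and 3p had p = 0.257. limma called 0 miRs (0%), with 46 (13%) at an unadjusted p under 0.05, and groups without overlap occurred in 12.2% of tested miRs (5.38% with the 10-month group higher). Without replicate 2 of the 10-month group the fold of miR-126-3p was 0.20 and that of miR-126-5p 0.46.

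**Figure D1:**
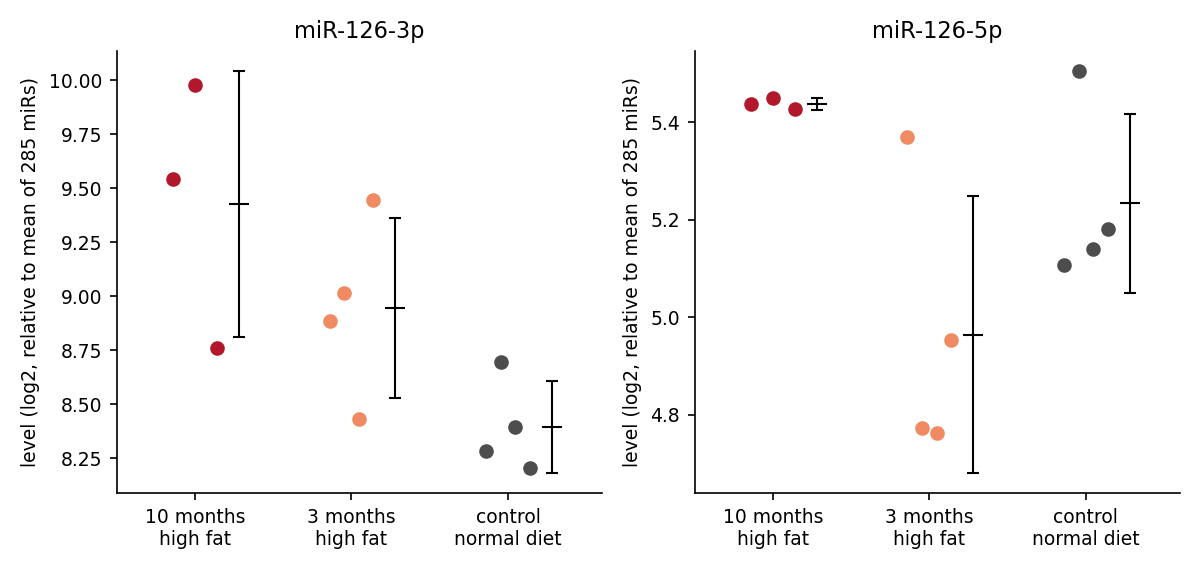
Level of miR-126-3p (left) and miR-126-5p (right) in each mouse, log2 relative to the mean of 285 miRs, with the group mean and SD as bars beside the points; the vertical axes differ and do not start at 0. All 3 mice after 10 months lie above the controls for 3p, while for 5p they lie within 0.02 of each other and below the highest control.

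The gap between the arms within a mouse, the cycle of 5p minus the cycle of 3p, needs no reference assay and was wider in the diet groups. It was 4.10, 4.53 and 3.34 cycles after 10 months, 3.52, 4.25, 3.67 and 4.49 cycles after 3 months, and 3.18, 3.19, 3.26 and 3.02 cycles in controls. Every mouse on the diet had a wider gap than every control, and the 4 controls lay within 0.23 of each other. The highest control and the lowest diet mouse were 0.08 cycles apart at 10 months and 0.26 at 3 months.

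The mean gap was 3.99 ± 0.60 cycles (SD, n = 3) after 10 months and 3.16 ± 0.10 (SD, n = 4) in controls, a difference of 0.83 (SE 0.35). The ratio of 3p to 5p signal was thus 1.77-fold higher if each cycle doubles the template. After 3 months the gap was 3.98 ± 0.46 cycles (SD, n = 4), against the same controls, a difference of 0.82 (SE 0.24) and a 1.76-fold higher ratio. The exact two-sided permutation p was 0.0286 in both comparisons, the smallest possible, and 0.0429 adjusted over the 3 comparisons. Both share the same 4 controls. Between 10 and 3 months the difference was 0.01 cycles (SE 0.42, exact permutation p = 1), and -0.26 without replicate 2 of the 10-month group.

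The call on the gap rests on that exact test. Entered as one more feature in the limma fit over all miRs, the gap had an adjusted p of 0.257 at 10 months and of 0.462 at 3 months. With quantile-normalized values the groups overlapped at both times, the differences were 0.40 and 0.60, and the exact permutation p was 0.114 and 0.0571. Without replicate 2 of the 10-month group the difference at 10 months was 0.56 (exact permutation p = 0.0667, the smallest that 2 against 4 mice can give). Both remaining mice lay above all controls, as they must once every diet mouse did.

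**Figure D2:**
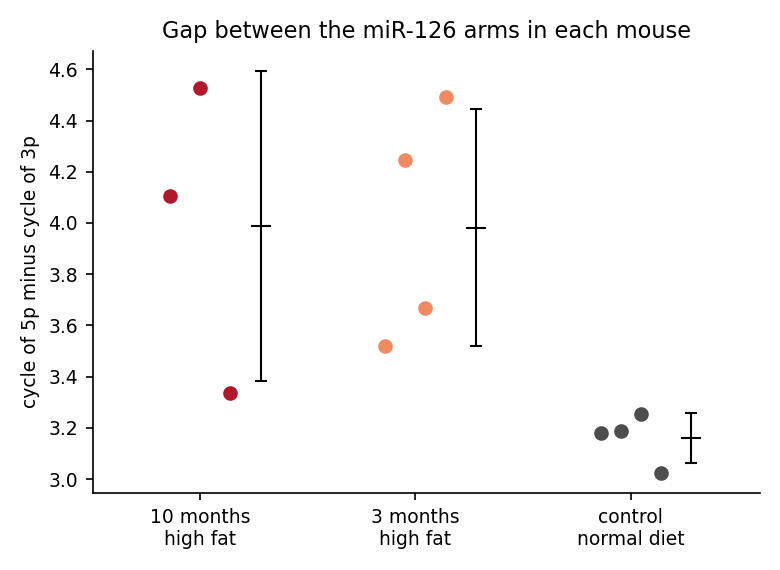
Gap between the arms of miR-126 in each mouse, as the cycle of miR-126-5p minus the cycle of miR-126-3p, with the group mean and SD as bars beside the points; the vertical axis does not start at 0. The 4 controls lie between 3.02 and 3.26 cycles, below all 7 mice on the high fat diet (3.34 to 4.53).

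Other hairpins were read in the same way as a background, an addition made after the gap of miR-126 had been seen. Both arms were detected in all mice for 61 hairpins, with the gap taken as later minus earlier arm. In controls, the SD of the gap was lowest for miR-126 of all 61, at 0.10 against a median of 0.63 cycles. Over all groups its pooled SD was 0.42, the 5th lowest. Among 61 signed changes, from most widened to most narrowed, that of miR-126 ranked 5th at 10 months and 11th at 3 months. By size in either direction it ranked 12th and 14th, so larger shifts occurred in other hairpins.

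At 10 months the groups did not overlap in 6 hairpins (9.84%), of which 3 were wider on the diet: miR-126, miR-324 and miR-345. The 3 that were narrower were miR-138, miR-193 and miR-21. At 3 months they did not overlap in 3 hairpins (4.92%): miR-126 and miR-337, which were wider (3.28%), and miR-125a, which was narrower. Between 10 and 3 months they did not overlap in 4 (6.56%), and miR-126 was not among them. limma over these gaps called 0 of 61 in each comparison, with 3 at an unadjusted p under 0.05 in each. For miR-126 the limma adjusted p was 0.839 at 10 months and 0.431 at 3 months.

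Only 15 of the 61 hairpins have both arms in the same assay block, as miR-126 does. Among these, 3 of 15 (20%) were without overlap at 10 months and 3 of 15 at 3 months, and the signed change of miR-126 ranked 2nd at 10 months and 3rd at 3 months (3rd and 5th by size in either direction). limma called 0 of 15 at both times, with 2 (13.3%) and 5 (33.3%) at an unadjusted p under 0.05. For miR-126 the limma adjusted p was 0.354 at 10 months and 0.138 at 3 months. The repeatability of a well can be gauged only from control assays present in both blocks. Their difference between the wells of a mouse had an SD of 0.51 cycles for snoRNA202 and 0.60 for U87. The SDs are over 11 mice, and the highest, for Y1, was 1.44 over the 10 mice with both wells detected. These SDs include any difference between blocks, which the miR-126 gap does not, and the part of well-to-well error in the gap was not tested.

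**Figure D3:**
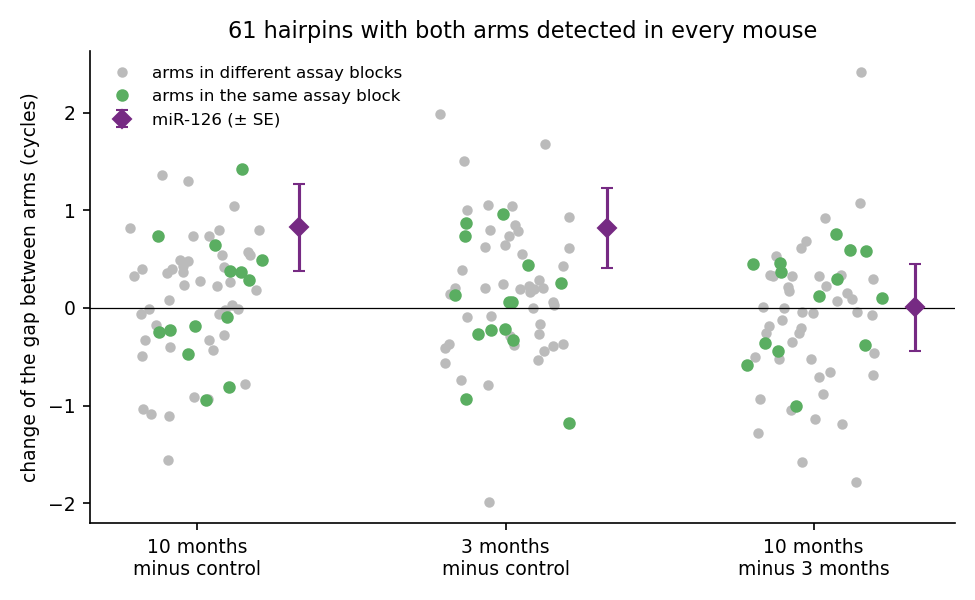
Change of the gap between the arms (cycles, limma estimate) for 61 hairpins in each comparison; grey and green points are hairpins with arms in different or the same assay block, and the diamond is miR-126 with its SE. miR-126 lies at 0.83 and 0.82 against control and at 0.01 between the times on the diet, within the range of the other hairpins.

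The reference chosen for each array moved the folds of both strands, and with them those of all miRs. At 10 months against control the log2 fold of miR-126-3p was 1.27 with the array median as centre, 1.25 with snoRNA202 and snoRNA429 and 1.17 with the 4 control assays. It was 0.67 with no normalization and 0.39 with quantile normalization. All were positive, with limma adjusted p from 0.0625 to 0.996 over all alternatives run. With replicate 2 of the 10-month group left out it was 0.38 with the control assays and 0.79 with snoRNA202 and snoRNA429.

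At 3 months against control the sign of miR-126-3p depended on the reference. Its log2 fold was -0.14 with the 4 control assays and 0.19 with snoRNA202 and snoRNA429. The median of all tested miRs was then -0.75 and -0.41, against -0.05 with the mean of the 285 miRs. Relative to that median, miR-126-3p lay 0.60 higher with each of these 3 references, as it must when only a constant per array changes, and 0.07 higher with quantile normalization. miR-126-5p was negative at 3 months under all alternatives run, from -0.96 to -0.15. At 10 months it ran from -0.18 to 0.45. The gap between the arms is the same under any reference that is a constant per array.

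**Figure D4:**
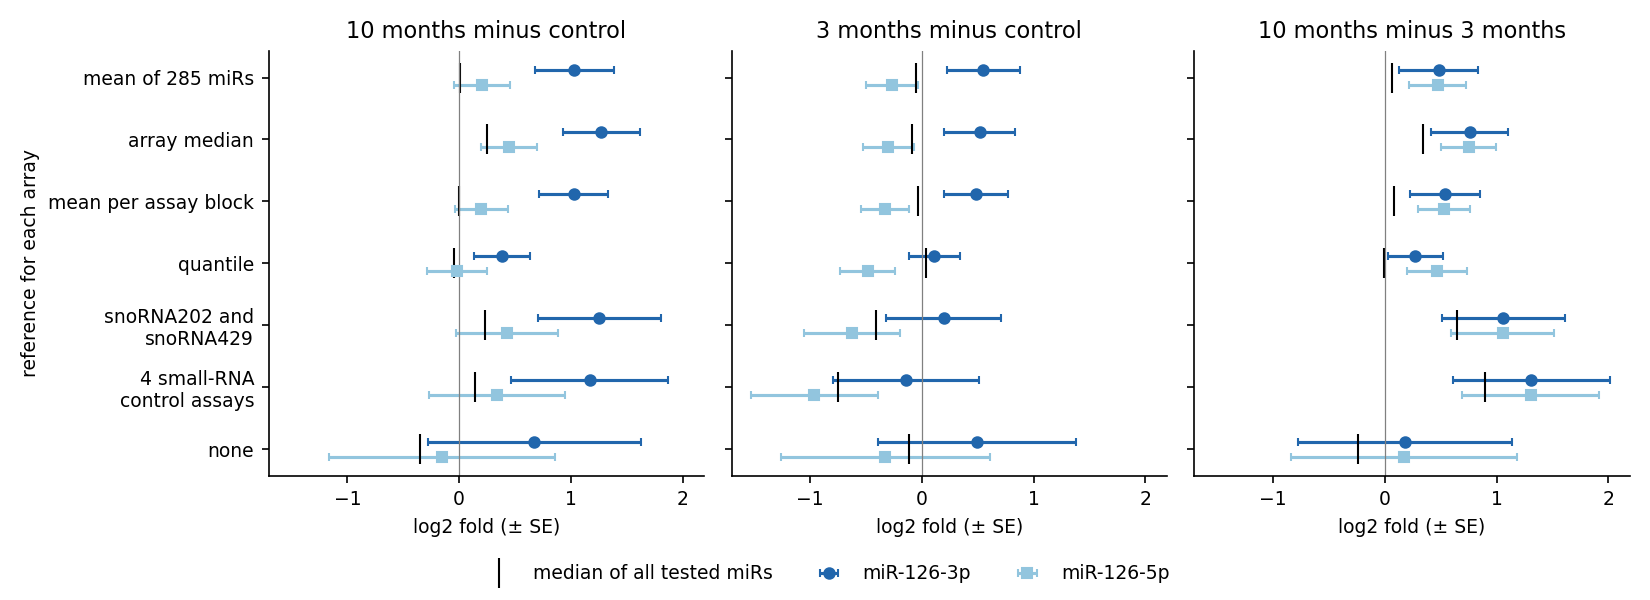
Log2 fold (± SE) of miR-126-3p (circles) and miR-126-5p (squares) under 7 references for the array, with the median of all tested miRs as a black tick. The distance between the strands is 0.83 and 0.82 against control under the references that shift a whole array, and smaller with quantile normalization.

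Likeness of other miRs to the strands was described by Pearson's r over the 11 mice, among the other 284 miRs detected in every mouse. The mice share the diet groups and each array's reference, so the values are descriptions. miR-126-3p was most like miR-146a (r = 0.97), a feedback inhibitor of NF-kB signalling, and its relative miR-146b (r = 0.96). miR-29a, which represses collagens, miR-132, a CREB-induced miR, and miR-342-3p followed at 0.91, 0.89 and 0.87.

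In deviations from the group means, which leave out differences between the group means, r with miR-126-3p was 0.93 for miR-146a and 0.91 for miR-146b. Without replicate 2 of the 10-month group it was 0.95 and 0.97. Over the other references and left-out mice, r with miR-146a ran from 0.64 to 0.98. The lowest r there was 0.60 for miR-146b, 0.55 for miR-29a, 0.46 for miR-132 and 0.30 for miR-342-3p. The level of miR-146a was 6.37 ± 1.19 (SD, n = 3) after 10 months, 5.44 ± 0.53 (SD, n = 4) after 3 months and 4.29 ± 0.32 (SD, n = 4) in controls. Its log2 fold was 2.08 at 10 months against control (SE 0.52, limma adjusted p = 0.0533). The least like were miR-337-3p, miR-544 and miR-485* (r = -0.84, -0.83 and -0.81), which belong to the imprinted Dlk1-Dio3 region. miR-337-3p fell by 1.94 on the log2 scale (limma adjusted p = 0.0259) and miR-485* fell by 1.77 (limma adjusted p = 0.0226) at 10 months against control. Without replicate 2 of the 10-month group the call of miR-337-3p was lost (-1.70, limma adjusted p = 0.0690), and both calls were lost with the control assays (limma adjusted p = 0.441 and 0.401). With no normalization, r with these 3 turned positive (0.46 to 0.50), as it did for miR-337-3p (0.12) and miR-544 (0.04) with the control assays.

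miR-126-5p ranked 87th of 284 in likeness to miR-126-3p (r = 0.29, and 0.26 in deviations from group means). Without replicate 2 of the 10-month group, and with the reference miRs unchanged, r was 0.11. Over the alternatives, which choose the reference miRs anew when a mouse is left out, it ran from 0.13 to 0.86, the highest with no normalization. Its own closest miRs were miR-142-3p (r = 0.67), a miR of blood-lineage cells, let-7i* (0.59), miR-218-2* (0.54), miR-34c* (0.53) and miR-701 (0.51). The farthest were miR-329 (-0.72), let-7e (-0.66) and miR-669a (-0.63), and with no normalization these turned to 0.56, 0.67 and 0.80. With the control assays they were 0.32, 0.01 and 0.65, and with snoRNA202 and snoRNA429 miR-669a was at 0.38. miR-142-3p had a log2 fold of -1.37 at 3 months against control (SE 0.38, limma adjusted p = 0.339) and 1.22 between 10 and 3 months (SE 0.41, limma adjusted p = 0.243). In deviations from the group means, r with miR-142-3p was 0.39. With let-7i*, miR-34c* and miR-701 it was 0.15, 0.12 and 0.09, and with miR-218-2* it was 0.56. The plain r with miR-701 ran from -0.02 to 0.85 over the alternatives.

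**Figure D5:**
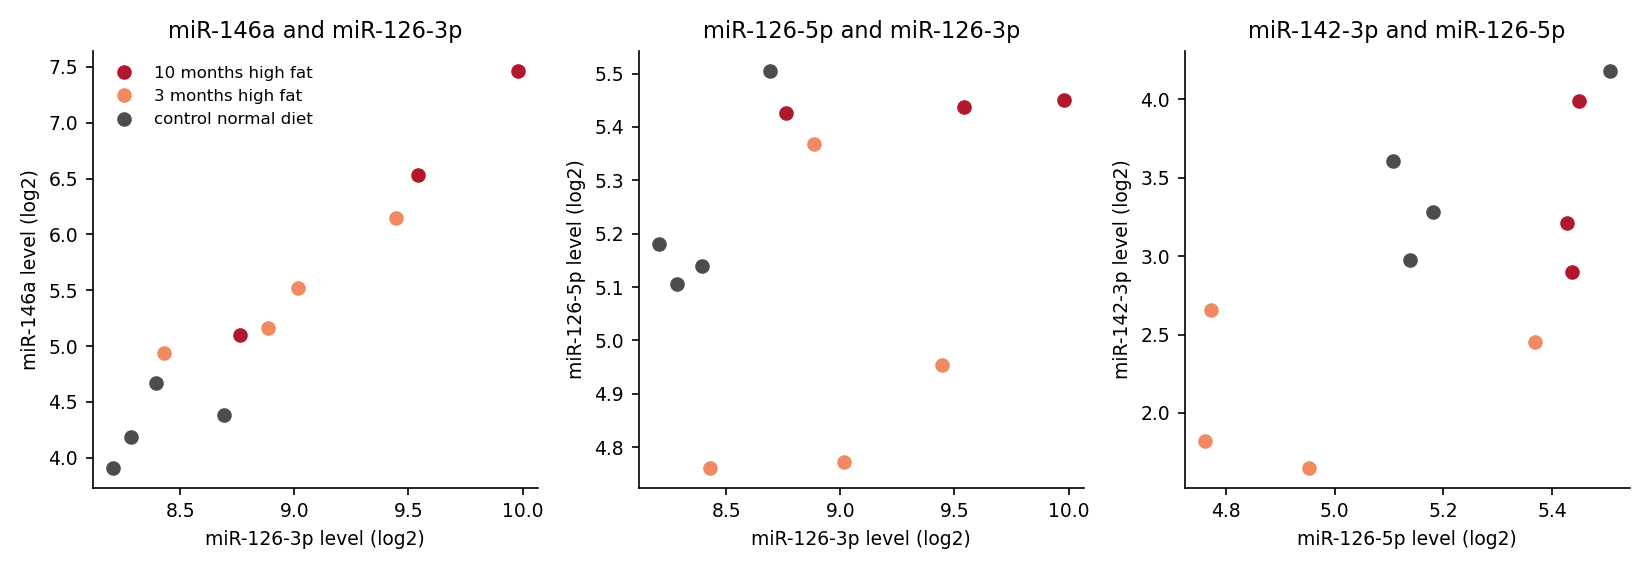
Levels (log2, relative to the mean of 285 miRs) in each of 11 mice: miR-146a against miR-126-3p (left, r = 0.97), miR-126-5p against miR-126-3p (middle, r = 0.29) and miR-142-3p against miR-126-5p (right, r = 0.67); colours mark the diet groups.

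Other miRs that act in endothelium or angiogenesis were read from a list of 22, of which 20 were tested. The list holds miR-221 and miR-222, the miR-17 cluster members miR-17, miR-18a and miR-92a, the clustered miR-23a, miR-23b, miR-27a, miR-27b and miR-24, and miR-10a, miR-31, miR-101a, miR-130a, miR-132, miR-210, miR-218, miR-296-5p, miR-322, miR-503 and let-7f. miR-23a was detected in 3 mice and not tested, and miR-181b was not analysed here. At 10 months against control 0 of 20 rose and 0 fell, where 4.53% of all tested miRs were called, with a median log2 fold of 0.19 against 0.005 over all tested miRs. The smallest p belonged to miR-296-5p (log2 fold -2.17, SE 0.62, limma adjusted p = 0.0738), followed by miR-132 (0.93, SE 0.34), miR-222 (1.33, SE 0.63) and miR-31 (-0.49, SE 0.29). With replicate 2 of the 10-month group left out, miR-222 was at 0.72.

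At 3 months 0 of 20 rose and 0 fell, where 0% of all tested miRs were called. The list median was 0.16, against -0.05 over all miRs. miR-296-5p was at -1.60 (SE 0.57, limma adjusted p = 0.441), miR-210, which hypoxia induces, at 0.53, miR-132 at 0.59 and miR-322 at -0.72. Between 10 and 3 months 0 of 20 rose and 0 fell (median 0.08 against 0.06), where again 0% of all tested miRs were called. There miR-322 at 0.73, miR-222 at 0.81, miR-31 at -0.38 and miR-17 at 0.47 had the smallest p (limma adjusted p from 0.528 to 0.631). With the same mouse left out miR-322 was at 0.29, miR-222 at 0.19 and miR-17 at 0.14. The list median was then 0.05, against 0.006 over all tested miRs.

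Markers of other cells of the aorta were read beside the strands, as the mean level of each list per mouse. The leukocyte markers (miR-142-3p, miR-142-5p, miR-223, miR-150 and miR-155, all 5 detected in every mouse) ran from 2.05 to 3.40 after 10 months, from 1.59 to 2.24 after 3 months and from 1.69 to 2.33 in controls. Against control, the median of their log2 folds came to 0.66 after 10 months and 0.04 after 3 months, with 4 of 5 and 3 of 5 positive. Single members ran from -0.14 (miR-142-3p) to 1.83 (miR-155) after 10 months and from -1.37 (miR-142-3p) to 0.73 (miR-155) after 3 months. With replicate 2 of the 10-month group left out, miR-142-3p was at -0.46 after 10 months. Between 10 and 3 months all 5 were positive, with a median of 1.03 against 0.06 over all tested miRs. The smooth muscle markers miR-143 and miR-145, the defining miRs of the main cell of the aortic wall, were at 9.56 to 10.1 after 10 months, 9.98 to 10.6 after 3 months and 9.67 to 10.3 in controls. Between 10 and 3 months their median log2 fold was -0.50, against 0.06 over all tested miRs. The striated muscle markers (4 of 4 tested) were at 1.87 to 2.23 after 10 months, 1.74 to 3.68 after 3 months and 2.18 to 2.76 in controls. Of these, miR-1 had a log2 fold of -1.87 at 10 months against control (limma adjusted p = 0.0961). Between 10 and 3 months it was at -2.05 (limma adjusted p = 0.161). Its groups overlapped in neither comparison, as in 15.9% and 12.2% of tested miRs. The other members ran from -0.24 to 0.30 and from -0.29 to 0.14. Of the 11 members of these 3 lists, 0 rose and 0 fell in any comparison, where 4.53% of all tested miRs were called at 10 months and 0% in the other comparisons. The part of any of them in the values of the strands was not tested.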

How the data were processed

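The authors deposited PCR threshold cycles without normalization, a log2 scale read backwards, in which 40 stands for no amplification, judging from the values. Their normalized table equals, to within 5e-05, the cycle minus the mean of snoRNA202 and snoRNA429. Assays come in 2 blocks (335 and 182), and both strands are in the first.

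Cycles were negated, set to 35 from that limit on, and each mouse was centred on its mean over 285 miRs, those detected in all mice. The 353 miRs detected in at least 3 mice of a group entered 1 limma 3.58.1 model (R 4.3.3) over all 3 groups, with Benjamini-Hochberg adjustment over all of them and a threshold of 0.05. The fit was tested on simulated data. For single values, mouse labels were permuted exactly, two-sided, and gaps between arms were adjusted over 3 comparisons. The hairpin was folded with RNAfold 2.7.2. Labels call each sample a biological replicate, and each was taken as 1 mouse.

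For each strand the 5 most like and 3 least like miRs were named, and for the endothelial list up to 4 miRs per comparison with the smallest p. Epithelial and fibroblast markers (5 tested each), erythroid (2), liver (1) and neural markers (1) had 0 calls in any comparison. Of all tested miRs, 4.53% were called at 10 months and 0% in the other comparisons, so these 0 calls do not set the lists apart. The members and lists were chosen with earlier results of these data known.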

Additional observations from a re-analysis of the deposited data

Results flagged for a closer look

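Of 14 groups of 4 mice checked, 1 held a value far from the others: the threshold cycle of miR-126-3p in replicate 3 of the 3-month group, at 16.5 against 14.8 to 15.0 in the other 3 mice. Its distance from the nearest mouse was 0.890 of the group's range, above Dixon's critical value for 4 samples, and chance flags about 1 in 20 groups. The mean cycle of the 285 miRs was also the latest of the group in this mouse, at 24.9 against 23.8 to 24.4, and relative to that mean its miR-126-3p level was 8.43.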

How the results depend on the processing

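The folds of both strands stayed on the same side of the limma threshold under every alternative refit. The log2 fold of miR-126-3p at 10 months against control, 1.03, passed in no limma refit, and its exact permutation p of 0.0286 was unadjusted. The fold of miR-126-5p there turned to -0.018 with quantile normalization, -0.15 with none and -0.18 with the control assays without 10-month replicate 2. The log2 fold of miR-126-3p at 3 months turned to -0.14 with the control assays, where leaving out a 10-month mouse cannot change it. The cause was not tested.

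The gap between the arms lost its call with quantile normalization (0.40 at 10 months and 0.60 at 3 months; -0.20 between the times). It also lost it in limma with unchanged differences of 0.83 and 0.82, as one more feature and over hairpins, the last added after seeing the data. With same-numbered mice as a replicate block it was 0.78 (exact sign test p = 0.25) and 0.82 (p = 0.125), the smallest p that 3 and 4 pairs can give. Same-numbered mice did not deviate together throughout (r from -0.36 to 0.47), so the numbers were not taken as pairs. Leaving out 1 mouse gave 0.56 to 1.15 at 10 months, 0.65 to 0.97 at 3 months and -0.26 to 0.34 between the times. Every diet mouse still had a wider gap than every control, which leaving out mice cannot change, since the full groups did not overlap. At 10 months, leaving out 1 mouse of the compared groups puts the smallest possible p above 0.05. At 3 months, leaving out any 1 control lost the call (exact p = 0.0571), although p could have reached 0.0286. Leaving out any 1 mouse of the 10-month group kept the exact p at 3 months at 0.0286. Adjusted over the 3 comparisons this exact p was then 0.0857, so the call was lost there too.

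The 16 calls at 10 months became 0 with the control assays or snoRNA202 and snoRNA429 (with or without 10-month replicate 2), no normalization, the deposited normalized values or only the 2 groups compared. They became 29 with only miRs detected in every mouse, 25 with array weights, 6 with the replicate block, 1 with no filter and 1 (without control replicate 2) to 12 with a mouse left out. The 0 calls at 3 months became 0 to 1 with a mouse left out. Those between the times became 4 with quantile normalization, 5 with each block centred by itself, 1 with the deposited values, 1 with robust variances and 10 with array weights. Groups of 3 and 4 mice and single wells limit the precision.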
